A study of Mus musculus with 24 samples.

Results

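The comparison described here was between bone marrow-derived macrophages (BMDMs, macrophages grown in culture from mouse bone marrow) labelled FosKO and LysM-Cre controls before any stimulation (0 h). Its members were the 3 FosKO and 3 LysM-Cre libraries that the labels call unstimulated, 6 of the 24 RNA-seq libraries in the series, and the 13901 of 24273 genes in the deposited table that passed a filter on low expression (at least 5 on the linear scale in at least 3 of the 24 libraries). All animals were labelled C57BL/6. Both groups carried LysM-Cre, which expresses Cre recombinase in myeloid cells from the lysozyme 2 gene, Lyz2, and the number of LysM-Cre alleles was not stated for either group. FosKO mice were Fos fl/fl, meaning that both Fos alleles were flanked by sites that Cre recombines. The controls were LysM-Cre mice by the series' design text, and were given 1 floxed Fos allele (Fos fl/+) by the study's text. Marrow was cultured in L-cell conditioned medium, and the cells rested overnight in low serum without lipopolysaccharide (LPS), the ligand of Toll-like receptor 4 that the other 18 libraries received for 0.5, 1 or 2 h. The question was which transcripts already differed at the start of the LPS time course.

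FOS is a leucine zipper protein that pairs with a JUN protein to form AP-1, a transcription factor that binds the DNA letters TGANTCA. It is an immediate early gene: its transcription rises within minutes of a growth factor or microbial signal and then falls. In macrophages, AP-1 acts beside NF-kB and the interferon regulatory factors (IRFs). Type I interferons such as interferon-beta (Ifnb1) act on neighbouring cells through the receptor IFNAR, which activates the transcription factor complex ISGF3. It contains STAT2 and IRF9 and binds interferon-stimulated response elements (ISREs) in front of antiviral genes, and a low level of this signalling is present in resting macrophages.

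Markers of other cells were low for some types and not for others. The 12 macrophage markers examined, among them Csf1r, Adgre1, Cd68 and Mertk, had log2 values from 9.80 to 16.6. Of these 12, 5 were higher and 4 lower in FosKO, with differences from -0.22 to 0.97 (Mertk). By contrast, Ly6g, Elane, Cd3e, Ncr1, Cpa3 and Hba-a2, which mark other blood cells, lay between -2.22 and -1.09. Of 5 neutrophil markers that passed the filter, 4 were lower in the FosKO libraries. Over the 6 libraries their ranges were 4.09 to 4.92 for S100a8, 3.85 to 4.93 for S100a9, 3.46 to 4.84 for Ngp, 3.05 to 4.25 for Ltf and 7.85 to 8.18 for Mmp8, the member not called. Of 4 endothelial markers 3 were higher, namely Kdr at 8.47 to 9.82 (0.90), Cdh5 at 3.65 to 4.48 (0.44) and Vwf at 11.2 to 11.6 (0.23). Of 4 osteoclast markers 2 were lower, Dcstamp at 8.77 to 9.82 (-0.89) and Ocstamp at 1.44 to 1.84 (-0.28), which lay under the filter in all 6 libraries and was tested only because of the LPS libraries, and Ctsk at 7.05 to 7.56 did not pass. The summed log2 level of the osteoclast list was 10.04 to 10.14 in LysM-Cre and 9.39 to 9.52 in FosKO. The single markers tested for T and NK cells and for mast cells were Cd4, higher at 7.65 to 8.42 (0.42), and Kit, lower at 4.36 to 5.33 (-0.43). None of 5 dendritic cell, 3 fibroblast and 1 B cell marker tested was called. The part of these markers in the other differences was not tested. In a bulk sample, fewer cells of a type and less RNA per cell cannot be told apart. Correlations across tested genes were 0.996 to 0.998 between libraries of a group and 0.991 to 0.995 between groups. The values carry no read counts, so depth per library is unknown here.

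Fos, the targeted gene (ENSMUSG00000021250, chr12:85473890-85477273, plus strand, GRCm38, GENCODE M21), did not show a lower transcript level in the libraries labelled FosKO. Its log2 values were 11.17, 11.07 and 11.10 in LysM-Cre and 12.72, 12.41 and 12.67 in the libraries labelled FosKO. All 3 FosKO values lay above all 3 controls, and the difference was 1.49 ± 0.09 (SE), or 2.80-fold (limma adjusted p = 1.15e-10, n = 3 and 3). The time course also differed. In LysM-Cre the mean went from 11.1 at 0 h to 13.5 at 0.5 h and 9.52 at 2 h after LPS, whereas in FosKO it was 12.6, 12.7, 12.8 and 12.8 at 0, 0.5, 1 and 2 h. The deposited value is 1 number per gene, so it does not show which part of the transcript was read, and the level of Fos RNA cannot check the label here. For this reason the group is called by its label throughout.

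The largest difference was at the Cre locus. Lyz2, which encodes lysozyme M of myeloid cells (ENSMUSG00000069516, chr10:117277331-117282321, minus strand), had log2 values of 10.90, 11.04 and 10.87 in LysM-Cre and 16.08, 16.12 and 16.12 in FosKO. The groups were far apart, and the difference of 5.17 ± 0.09 (SE) was 35.9-fold (adjusted p = 9.26e-20). Values at the later times were alike, with means of 11.2 to 11.3 in LysM-Cre and 16.2 to 16.3 in FosKO. The LysM-Cre allele is an insertion of Cre into the coding start of Lyz2, and whether the groups differed in the number of such alleles was not tested. Fos genotype and Lyz2 level differed between the same groups, and the part of either in the other differences was not tested. The neighbouring gene Lyz1, the lysozyme of Paneth cells and of some myeloid cells, differed in the other direction, at 9.16, 8.67 and 9.11 in LysM-Cre and 8.22, 8.23 and 8.54 in FosKO (difference -0.65 ± 0.17, adjusted p = 0.0048). Reads of this near-identical pair could be shared between them, so both values are uncertain. Within 5 Mb on either side of Lyz2, 15 of 39 tested genes were called (38.5%), and within 5 Mb of Fos 24 of 87 were (27.6%).

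Those shares are to be read against the whole comparison, in which a large part of the transcriptome differed by a small amount. Of 13901 genes, 4919 (35.4%) were called by limma at an adjusted p under 0.05, 2708 higher (19.5%) and 2211 lower (15.9%) in FosKO. Under quantile normalisation the balance turned, with 2283 higher (16.4%) and 2756 lower (19.8%), and list counts given for that setting are to be read against these shares. The median difference of the called genes was 1.21-fold. Of the called genes, 142 were higher (1.02% of all tested) and 63 lower (0.453%) by 2-fold or more, together 1.47%, and 16 differed by 4-fold or more. Counts of small differences are therefore to be read against 35.4%. The values of the 3 libraries on each side did not overlap for 6189 genes (44.5%).

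**Figure D1:**
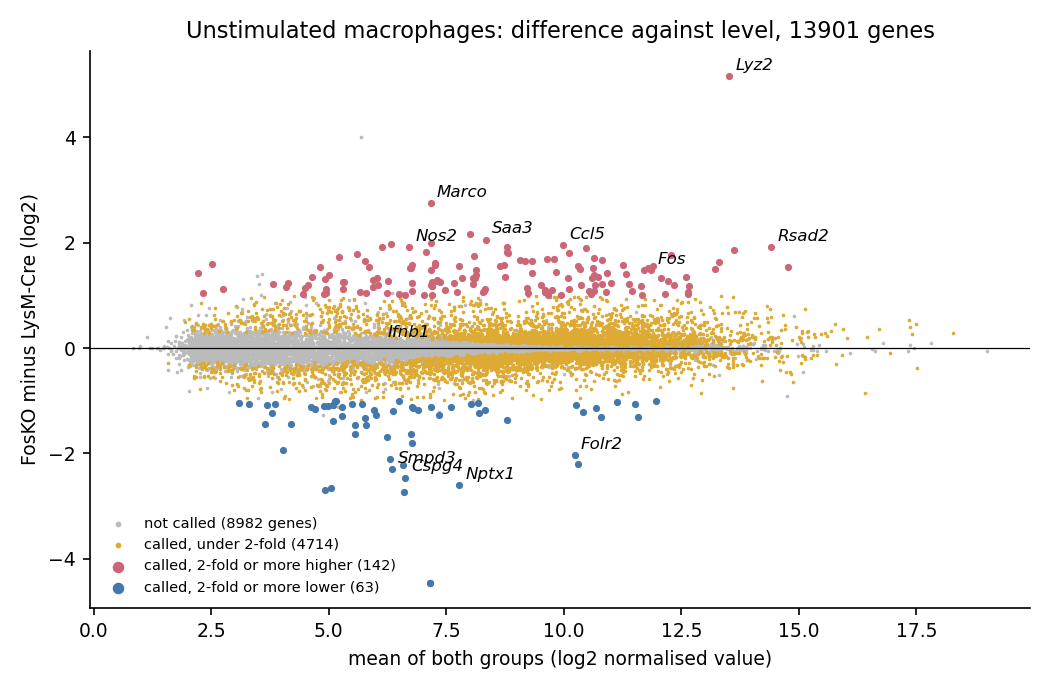
Difference between FosKO and LysM-Cre at 0 h (log2, y axis) against the mean of both groups (log2 normalised value, x axis) for the 13901 genes tested, 1 point a gene and 3 libraries a group. Lyz2 stands alone at 5.17, the 142 genes higher by 2-fold or more and the 63 lower are in red and blue, and most called genes lie within 1 log2 unit of 0.

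Protein-coding genes were ranked by difference where their linear values averaged 50 or more. The 12 largest called increases were Lyz2, Marco, H2-M2, Saa3, Fabp3, Serpina3g, Ccl5, Nos2, Rsad2, Nyap2, Ifi205 and C3. Marco, a scavenger receptor for bacteria and particles, had values of 5.93, 5.56 and 5.87 in LysM-Cre and 8.44, 8.77 and 8.43 in FosKO (2.76 ± 0.13, adjusted p = 2.41e-12). Saa3, an acute phase protein of macrophages, had 7.32, 7.39 and 7.22 against 8.94, 9.43 and 9.74 (2.06 ± 0.18, adjusted p = 4.05e-08). Nos2, the inducible nitric oxide synthase, had 5.93, 5.70 and 5.62 against 7.12, 7.58 and 8.31 (1.92 ± 0.29, adjusted p = 2.3e-05). None of these groups overlapped, and FosKO replicate 3 was the highest library for Saa3 and Nos2 but not for Marco. H2-M2, a non-classical MHC class I gene, differed by 2.16 ± 0.14, Fabp3, a fatty acid binding protein, by 1.99 ± 0.11, and C3, the central complement component, by 1.86 ± 0.16.

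The 12 largest called decreases were Gm42674, Nptx1, Cspg4, Smpd3, Cyp2s1, Col18a1, Slco2b1, Folr2, Col4a5, Fgfr1, Akap2 and Ptprn. Nptx1, a secreted pentraxin best known from neurons, had values of 9.20, 8.88 and 9.15 in LysM-Cre and 6.58, 6.42 and 6.44 in FosKO (-2.60 ± 0.07, adjusted p = 1.16e-15). Col18a1, a basement membrane collagen that contains endostatin, had 11.45, 11.43 and 11.34 against 9.31, 9.11 and 9.22 (-2.19 ± 0.06, adjusted p = 5.9e-16). Folr2, the folate receptor of some tissue macrophages, had 11.29, 11.18 and 11.27 against 9.37, 9.09 and 9.19 (-2.03 ± 0.09, adjusted p = 1.45e-12). The libraries of each group lay close together for all 3 genes and far from the other group. Smpd3, neutral sphingomyelinase 2, fell by 2.29 ± 0.10, Cspg4, the NG2 proteoglycan, by 2.46 ± 0.15, and Fgfr1, a fibroblast growth factor receptor, by 1.69 ± 0.09. Gm42674 is uncertain: its FosKO values were 3.96, 7.06 and 4.68 against 8.12, 7.87 and 7.87, and its call (adjusted p = 0.0286) was lost when any of 5 of the 6 libraries was left out.

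**Figure D2:**
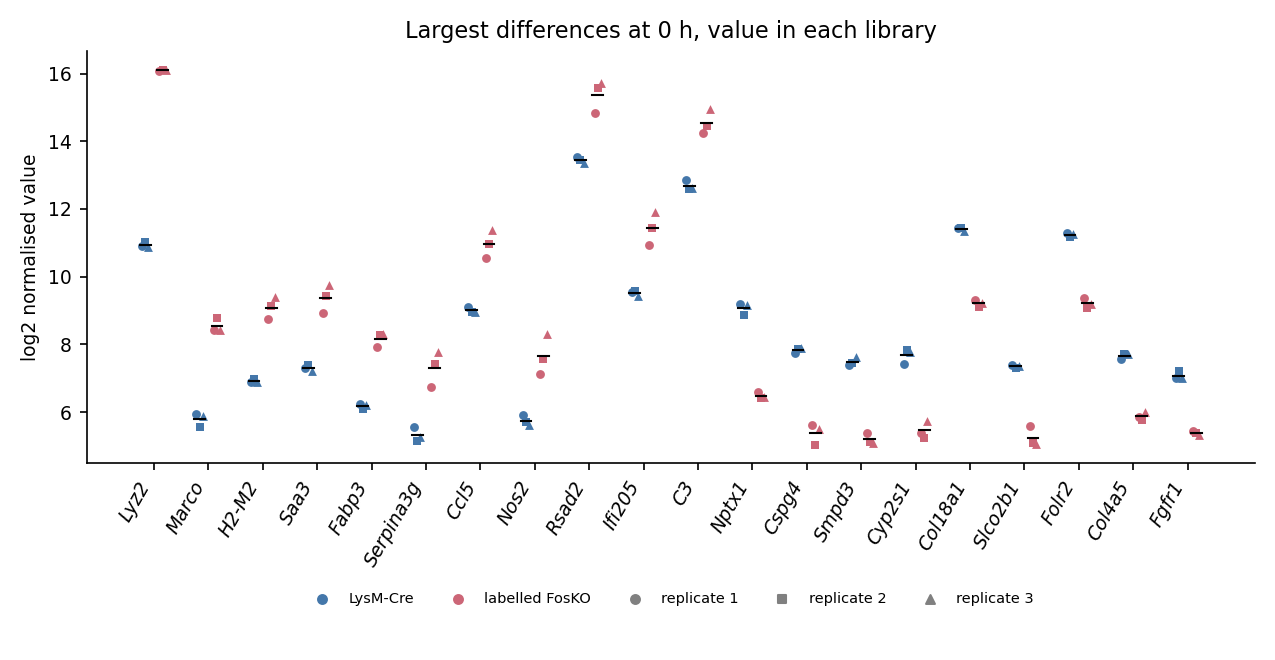
Log2 normalised value (y axis) in each of the 6 libraries at 0 h for 11 of the genes with the largest increases and 9 with the largest decreases (x axis), with a black line at each group's mean. The groups do not overlap for any gene shown, and the FosKO libraries are spread more widely for Serpina3g, Ccl5, Nos2 and Rsad2 than for Lyz2 or Col18a1.

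Interferon-related genes were mostly higher. Over 5 lists (ISGF3 and IRFs, antiviral effectors, nucleic acid sensors, guanylate-binding proteins with p47 GTPases, and MHC class I presentation), 89 of 95 tested members were higher in FosKO and 1 was lower, against 19.5% and 15.9% of all genes tested. These members made up 28 of the 142 genes higher by 2-fold or more.

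Of 40 antiviral effectors, 39 were higher, with a median difference of 0.74 against 0.00 for all genes tested. Rsad2, the antiviral enzyme viperin, had values of 13.55, 13.44 and 13.37 in LysM-Cre and 14.82, 15.57 and 15.72 in FosKO (1.92 ± 0.19, 3.78-fold, adjusted p = 1.76e-07). Ifit3, of a family that binds foreign RNA, had 12.54, 12.47 and 12.39 against 13.60, 14.04 and 14.27 (2.84-fold, adjusted p = 2.23e-07), and Isg15, a ubiquitin-like modifier, had 10.56, 10.31 and 10.29 against 11.38, 11.68 and 11.82 (1.24 ± 0.14). In every case the lowest FosKO library was above the highest control. Ifi44, Cmpk2, Mx1 and Ifit2 differed by 1.69, 1.64, 1.49 and 1.55, and the smallest difference among the 39 was 0.44, for the RNA-editing enzyme Adar. The exception was Ifi27l2a at -0.22, at the threshold of the test (adjusted p = 0.0501). It was called lower under several alternatives, among them leaving out FosKO replicate 1 and quantile normalisation.

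All 15 guanylate-binding proteins and p47 GTPases, which attack the vacuoles of intracellular microbes, were higher, by 0.85 (Gbp9) to 1.81 (Gbp6) with a median of 1.33. Gbp2 had values of 11.28, 11.04 and 11.01 in LysM-Cre and 12.13, 12.71 and 13.17 in FosKO (1.56 ± 0.21, adjusted p = 7.19e-06), so that the FosKO libraries were separated from the controls but also differed among themselves by 1 log2 unit. Tgtp1 and Tgtp2, like several Gbp genes, are near-identical copies whose reads may be divided between them.

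The transcription factors and receptors upstream of these genes differed less evenly. Irf7, an interferon-induced IRF, had values of 11.83, 11.72 and 11.65 in LysM-Cre and 12.71, 12.97 and 13.13 in FosKO (2.30-fold, adjusted p = 2.78e-07). Stat2 differed by 0.93 ± 0.10, and the feedback inhibitors Usp18 and Socs1 by 1.09 and 0.66. Irf9 differed by 0.24. The receptor chains Ifnar1 (0.01) and Ifnar2 (-0.04), Irf3 (-0.06), which acts without induction, and Irf5 (0.05) did not pass the test. Thus 11 of 15 members of the ISGF3 and IRF list were higher, 8 of 15 without FosKO replicate 3. Under quantile normalisation 8 were higher and 2 lower.

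The interferons themselves did not pass the test. Ifnb1 had values of 6.05, 6.04 and 6.14 in LysM-Cre and 6.10, 6.15 and 6.26 in FosKO, which overlapped (0.10 ± 0.12, adjusted p = 0.609). Il10, an anti-inflammatory cytokine, had 5.78, 6.13 and 6.04 against 5.60, 5.84 and 5.73 (-0.26 ± 0.13, adjusted p = 0.152). Of the 7 interferon and Il10 genes tested, 0 were called, and the 5 Ifna genes, which are near-identical copies, differed by 0.02 to 0.07. Their log2 values at 0 h were low, 2.02 to 3.19, with Ifna6 under the filter in all 6 libraries. The FosKO values of these 5 did not overlap those of the controls, as was so for 44.5% of all genes tested, and at these levels neither this nor the missing call says much about a difference.

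Among nucleic acid sensors, 12 of 13 were higher. Ifi205, a pyrin and HIN domain protein of the Aim2 family, had values of 9.54, 9.57 and 9.42 in LysM-Cre and 10.94, 11.44 and 11.90 in FosKO (1.91 ± 0.19). Zbp1, a sensor of Z-form nucleic acid, differed by 1.43, Tlr3, the endosomal receptor for double-stranded RNA, by 0.96, Ddx58 (RIG-I) by 0.92 and Ifih1 (MDA5) by 0.83. The adaptors Mavs and Tmem173 (STING) differed by only 0.08 and 0.17, both past the threshold. Tlr7, for single-stranded RNA, was lower at 12.86 to 13.12 in FosKO against 13.19 to 13.21 in LysM-Cre (-0.21 ± 0.05, adjusted p = 0.00433). Between 9 and 11 of the 13 sensors were higher with any 1 library left out, and 9 were without FosKO replicate 3.

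All 12 genes of MHC class I presentation were higher, by 0.18 to 0.81, and 10 were under quantile normalisation. They included the peptide transporter Tap1 (0.81), the immunoproteasome subunits Psmb8, Psmb9 and Psmb10 (0.47, 0.59 and 0.65), B2m (0.47) and the transactivator Nlrc5 (0.65). Of 8 MHC class II genes, 2 were higher, H2-DMa (0.54) and H2-DMb1 (0.22), and the 6 others, Ciita among them (-0.09), did not pass. The share of class II genes called higher was 25%, against 19.5% of all genes tested. Whether the class I and class II lists differ was not tested.

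**Figure D3:**
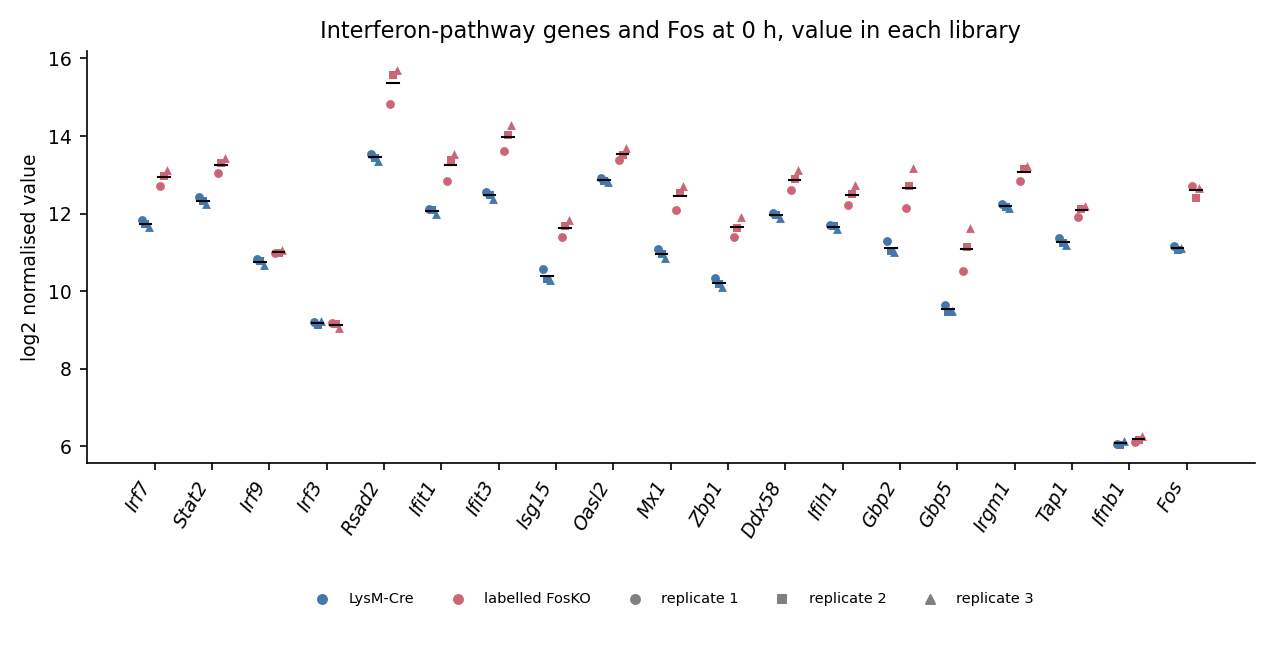
Log2 normalised value (y axis) in each library at 0 h for interferon-pathway genes and Fos (x axis), with markers by replicate number and a black line at each group's mean. The LysM-Cre libraries sit together, the FosKO libraries lie above them for all but Irf3 and Ifnb1, and FosKO replicate 1 is the lowest FosKO library for most of the interferon-induced genes.

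The size of these differences varied between the FosKO libraries. Of the 40 antiviral effectors, 39 had their lowest FosKO value in replicate 1 and 37 their highest in replicate 3, and for the 15 guanylate-binding proteins and p47 GTPases the counts were 14 and 14. The median excess of the antiviral effectors over the LysM-Cre mean was 0.55, 0.77 and 0.94 in FosKO replicates 1, 2 and 3, and that of the guanylate-binding proteins 0.86, 1.28 and 1.80. The LysM-Cre libraries had medians of -0.06 to 0.07 for the antiviral effectors. By these medians every FosKO library stood above every control, and the 39 antiviral calls were made with any single library left out. All 15 guanylate-binding proteins and p47 GTPases were called except without FosKO replicate 3, where 14 were. The number of genes higher by 2-fold or more was 192 without FosKO replicate 1 and 112 without replicate 3.

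The DNA in front of these genes was read from RefSeq promoters (GRCm38.p6), which were matched for 9531 of the 13901 genes, 94 of the 142 higher by 2-fold or more and 37 of the 63 lower. The core of an ISRE, GAAA repeated after any 2 bases, was searched on both strands in the 250 bases before the start. It was found in 22 of the 94 (23.4%), in 13 of 33 antiviral effectors (39.4%) and in 9 of 10 guanylate-binding proteins and p47 GTPases (90%), against 3.48% of all tested genes with a promoter, 3.46% of all RefSeq genes with one, and 1 of the 37 lower genes (2.7%). The share was 23.1% (3 of 13) in the ISGF3 and IRF list, 14.3% (1 of 7) among nucleic acid sensors and 10% (1 of 10) in MHC class I presentation. It was 83.3% (5 of 6) among the type I interferons and Il10, of which 0 were called. This is a description of sequence, not of binding, and the genes of these families are related by descent. The following stretches, from 6 of these genes whose windows do not overlap an annotated exon, are shown because each holds the searched letters and lies before a gene that was higher by 2-fold or more. The first 5 belong to the antiviral and GTPase lists and Cxcl10 to the chemokines. They run 5′ to 3′ on the strand of the gene, with the matched letters in capitals (GAAA, or TTTC where the match is on the other strand).
Rsad2: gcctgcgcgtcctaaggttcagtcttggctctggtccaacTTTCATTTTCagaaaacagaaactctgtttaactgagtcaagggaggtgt
Isg15: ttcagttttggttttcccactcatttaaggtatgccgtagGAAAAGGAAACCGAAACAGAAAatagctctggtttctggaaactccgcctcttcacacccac
Ifit3: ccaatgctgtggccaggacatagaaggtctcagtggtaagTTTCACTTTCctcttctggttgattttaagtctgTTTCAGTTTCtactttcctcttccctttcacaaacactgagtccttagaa
Gbp5: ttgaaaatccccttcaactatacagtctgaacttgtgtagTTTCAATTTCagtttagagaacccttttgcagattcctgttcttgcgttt
Tgtp2: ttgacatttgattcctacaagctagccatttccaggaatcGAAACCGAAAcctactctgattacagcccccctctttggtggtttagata
Cxcl10: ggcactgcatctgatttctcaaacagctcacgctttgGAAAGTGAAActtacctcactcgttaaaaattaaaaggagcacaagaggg
They lie on GRCm38.p6 for Rsad2 at chr12:26456523-26456612 (minus strand), Isg15 at chr4:156200835-156200936 (minus strand), Ifit3 at chr19:34583333-34583456 (plus strand), Gbp5 at chr3:142496729-142496818 (plus strand), Tgtp2 at chr11:49064233-49064322 (minus strand) and Cxcl10 at chr5:92349053-92349139 (minus strand). The 3 overlapping matches of Isg15 and the separate pair in Ifit3 are printed as found. Gbp5 differed by 1.56, Tgtp2 by 1.51 and Cxcl10, a chemokine for activated T cells, by 1.33.

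Chemokines and cytokines differed in part. Of 20 chemokines 11 were higher and 2 lower. Ccl5, which attracts T cells and monocytes, had values of 9.11, 8.97 and 8.96 in LysM-Cre and 10.56, 10.97 and 11.39 in FosKO (1.96 ± 0.20, adjusted p = 2.63e-07). Ccl12, Cxcl10, Cxcl9 and Ccl7 differed by 1.57, 1.33, 1.30 and 1.08, and Cxcl11 was 2.38-fold higher, whereas the neutrophil chemokines Cxcl1 (0.05) and Cxcl2 (0.06) did not pass. Pf4 was lower (-0.32), as was Ccl9 (-0.16), whose call was lost without LysM-Cre replicate 1, which left 1 chemokine lower. Of 17 cytokines 9 were higher and Vegfa was lower (-0.43). Csf1, the growth factor on which macrophages depend, had 9.84, 9.75 and 9.72 against 10.82, 11.05 and 11.03 (2.30-fold, adjusted p = 8.14e-12). Il27 (0.76), Il18 (0.62) and Tnf (0.30) were higher, and Il6 (0.12), Il1b (0.20) and Il23a (0.10) did not pass. NF-kB factors and their inhibitors were higher in 10 of 14 cases by at most 0.38 (Bcl3 and Tnfaip3), and Tnip3 was lower (-0.43).

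Receptors at the cell surface differed in both directions. Among scavenger and apoptotic cell receptors 10 of 18 were higher and 4 lower. Beside Marco, the bridging protein Mfge8 had values of 11.60, 11.60 and 11.57 in LysM-Cre and 12.78, 12.86 and 12.96 in FosKO (1.28 ± 0.05), and Mertk, the receptor kinase for dying cells, differed by 0.97. Cd163, the haemoglobin receptor (-1.07), and Cd36, which takes up oxidised lipid (-0.65), were lower. Of 15 C-type lectins and Fc receptors 11 were higher, led by Clec4n (dectin-2, 1.43), Clec4e (mincle, 1.02) and the inhibitory receptor Fcgr2b (0.98). Of 13 receptors for chemoattractants 4 were higher, with the formyl peptide receptors Fpr2 (1.27) and Fpr1 (0.91) in front, and 6 were lower, with Cx3cr1 (-0.67) and Ccr2 (-0.65) in front. Among 22 Toll-like receptors and adaptors 11 were higher and 3 lower. Tlr4 itself (0.05) and its partner Ly96 (0.02) did not pass, while Tlr2 was higher (0.48) and Cd14 lower (-0.22).

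The AP-1 family, to which Fos belongs, was split. Fosl1 (FRA1) had values of 4.56, 4.45 and 4.54 in LysM-Cre and 3.83, 3.47 and 3.54 in FosKO (-0.90 ± 0.14, adjusted p = 2.72e-05), and Fosl2 (FRA2) had 10.39, 10.46 and 10.45 against 10.02, 9.92 and 9.88 (-0.50 ± 0.06, adjusted p = 2.93e-06). Both were lower in all 3 FosKO libraries. Junb (0.07 ± 0.06) did not pass. Nor did Fosb (-0.25 ± 0.27), at 4.62, 4.69 and 4.68 in LysM-Cre and 4.37, 4.41 and 4.45 in FosKO, which did not overlap. The SE of Fosb rests on the spread pooled over all times. Its SD was 0.04 in each group at 0 h, and 0.54 in LysM-Cre and 0.66 in FosKO at 1 h. Jun (0.14 ± 0.04) and Jund (-0.15 ± 0.05) passed by small margins. Jun lost its call without LysM-Cre replicate 1, and Jund without any of FosKO replicates 2 and 3 and LysM-Cre replicates 1 and 2. Batf2 (0.72), Batf (0.53), Atf4 (0.51), Mafk (0.44), Atf3 (0.21), Maf (0.19) and Jdp2 (0.25) were higher, which with Fos and Jun gave 9 higher and 3 lower of 19, or 7 and 5 under quantile normalisation. The counts were 8 higher and 2 lower without FosKO replicate 3. Of 26 ERK feedback genes and targets of the TCF and SRF factors, 8 were lower and 2 higher, or 9 and 1 under quantile normalisation. The share of this list called, 38.5%, was near the 35.4% of all genes tested. Dusp5, a phosphatase of nuclear ERK, had 7.98, 7.87 and 7.98 against 7.01, 6.92 and 6.94 (-0.99 ± 0.07, adjusted p = 1.89e-09), Egr2 differed by -0.59 and Klf4 by -0.39. Egr1 (-0.21), Egr3 (-0.23) and Nr4a1 (-0.12) did not pass. Map3k8, which encodes TPL-2, the kinase upstream of ERK in this pathway, was higher by 0.31 ± 0.06.

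The letters TGANTCA were searched in the same 250 bases. They were present in 5 of the 37 genes lower by 2-fold or more that had a promoter (13.5%), in 14 of the 94 higher by 2-fold or more (14.9%) and in 5.59% of all tested genes with one (7.82% of all RefSeq genes with one). The 3 lower genes whose windows do not overlap an annotated exon are shown, with the matched letters in capitals. They are shown as matches before genes lower by 2-fold or more, and only Folr2 is among the 12 largest decreases. The other two genes were the metallothionein Mt2 (-1.17) and Btbd11 (-1.17).
Folr2: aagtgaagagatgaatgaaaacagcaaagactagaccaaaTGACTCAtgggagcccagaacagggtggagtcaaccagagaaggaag
Ctla2a: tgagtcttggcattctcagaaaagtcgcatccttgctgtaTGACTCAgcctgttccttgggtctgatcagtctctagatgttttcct
Cd207: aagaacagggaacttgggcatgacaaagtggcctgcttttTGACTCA
They lie on GRCm38.p6 for Folr2 at chr7:101845359-101845445 (minus strand), Ctla2a at chr13:60936708-60936794 (minus strand) and Cd207 at chr6:83677858-83677904 (minus strand). Folr2 differed by -2.03, Ctla2a, a cysteine protease inhibitor, by -1.39 and Cd207 (langerin) by -1.10. The same letters occur 87 bases before the start of Rsad2, a higher gene.

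Lists of attachment and matrix turnover differed in both directions, with the caveola and actin list mostly lower. Of 12 caveola and actin genes 8 were lower and 1 higher, with a median of -0.32. Cav1, the main protein of caveolae, had values of 6.03, 5.84 and 5.89 in LysM-Cre and 4.96, 4.98 and 4.97 in FosKO (-0.95 ± 0.09), and Cavin1 (Ptrf in the table), their coat protein, differed by -1.27 ± 0.12. The higher gene was Tagln (0.47), which lost its call without FosKO replicate 3 or LysM-Cre replicate 1 or 2. Of 18 proteases and inhibitors 9 were lower, among them Timp1 (-0.68), the plasminogen activator Plau (-0.60) with its receptor Plaur (-0.27), and Adam8 (-0.45). The membrane protease Mmp14 was higher, at 8.24, 8.29 and 8.15 in LysM-Cre and 9.66, 9.92 and 10.11 in FosKO (1.67 ± 0.10, adjusted p = 1.68e-10). With Mmp9 (0.60) and Mmp2 (0.30) 3 members were higher, which became 1 without FosKO replicate 1 or 3 or LysM-Cre replicate 2 or 3. Of 15 matrix genes 4 were lower, with Tgfbi (-0.83) and Col4a1 (-0.72) after Cspg4 and Col18a1, and 3 were higher, with Thbs1 (1.65), an adhesive glycoprotein, and Fn1, fibronectin (0.86), in front. Of 16 integrins and adhesion molecules 4 were higher and 6 lower, with a median of -0.01. Itgal, a chain of LFA-1, was higher (1.08), and Itgb7 (-0.79) and Itga6 (-0.62) were lower.

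Stress response genes under ATF4, which is translated when amino acids are short or proteins misfold, also differed mostly in 1 direction. Of 18 members of the integrated stress response list, 16 were higher and Psat1 was lower (-0.18), with a median of 0.51. Slc7a11, the cystine transporter, had values of 7.80, 7.77 and 7.72 in LysM-Cre and 8.67, 9.12 and 8.86 in FosKO (1.12 ± 0.12), Ddit3 (CHOP) had 8.77, 8.71 and 8.76 against 9.66, 9.70 and 9.87 (0.99 ± 0.07), and Trib3 differed by 0.89. The 3 FosKO libraries were close to one another here, with median excesses of 0.48, 0.54 and 0.54. Between 15 and 17 members were higher under every alternative tried. The letters TGATGNAAN, a binding sequence of ATF4 with C/EBP proteins, were found in 5 of 15 members with a promoter (33.3%) against 2.57% of tested genes (3.89% of all RefSeq genes with a promoter). They were also found in 8 of the 94 genes higher by 2-fold or more (8.51%) and in 3 of the 6 type I interferons and Il10 with a promoter (50%), of which 0 were called. Both strands were searched. The match before Chac1, which is on the other strand so that the capitals hold its reverse complement, is shown as the member whose window does not overlap an annotated exon.
Chac1: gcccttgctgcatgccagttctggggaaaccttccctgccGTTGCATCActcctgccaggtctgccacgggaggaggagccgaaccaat
It lies on GRCm38.p6 for Chac1 at chr2:119351008-119351096 (plus strand). Chac1, a glutathione-degrading enzyme, differed by 0.69, and Asns, asparagine synthetase, by 0.54.

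Cell cycle genes were lower as a group. Of 31 members 21 were lower and 4 higher, with a median of -0.36. Ccnb2, cyclin B2, had values of 8.16, 7.88 and 8.04 in LysM-Cre and 7.48, 7.25 and 7.32 in FosKO (-0.68 ± 0.11, adjusted p = 8.91e-05), Rrm2, a ribonucleotide reductase subunit, differed by -0.62, and Top2a and Mki67 by -0.60 and -0.46. The higher members were the D cyclins Ccnd2 (0.81), Ccnd1 (0.16) and Ccnd3 (0.13) and the inhibitor Cdkn1a (p21, 0.46). FosKO replicate 1 had the highest FosKO value for 26 of the 31 genes, and the median difference from the LysM-Cre mean was -0.17, -0.41 and -0.40 in FosKO replicates 1, 2 and 3. With 1 library left out, 16 to 26 members were lower, with 26 and 2 higher without FosKO replicate 1, 16 lower without FosKO replicate 2 and 17 lower without FosKO replicate 3 or LysM-Cre replicate 1. Without LysM-Cre replicate 2 or 3, and under quantile normalisation, 2 members were higher as well.

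Lists of metabolism, the lysosome and cell death held differences in both directions. Of 17 glycolysis genes 10 were lower by 0.10 to 0.37, with the lactate exporter Slc16a3 (-0.37) and Gpi1 (-0.34) in front, and Hk2 (0.37), Hk3 (0.57) and the regulator Pfkfb3 (0.84) were higher. Of 17 genes of lipid handling 9 were higher, among them Fabp4 (1.08), Nr1h3 (LXR alpha, 0.80) and Fabp5 (0.66), and 5 were lower, with Scd1, a fatty acid desaturase, at 11.89, 12.15 and 12.08 in LysM-Cre and 10.96, 11.02 and 10.95 in FosKO (-1.06 ± 0.08). Of 25 lysosome genes 19 were higher and 2 lower, with a median of 0.20, but only 12 were higher under quantile normalisation. Ctsz (0.59) and Ctsh (0.54) were higher and Ctsl was lower, at 13.15 to 13.26 in FosKO against 13.93 to 14.03 (-0.75 ± 0.04). Of 19 sterol genes 4 were higher and 3 lower (36.8%, against 35.4% of all genes tested), which became 0 and 8 under quantile normalisation. Without FosKO replicate 2 or LysM-Cre replicate 1, 1 sterol gene was higher, and without the latter 5 were lower. Of 15 sphingolipid genes 7 were higher and 4 lower, among them Asah2, neutral ceramidase (0.74), which was higher, and Smpd3, which was lower (-2.29). Without FosKO replicate 2 the number lower was 2. Of 17 inflammasome and cell death genes 11 were higher, with Casp4 (0.94), Nlrc4 (0.82) and Mlkl (0.79) in front, and Nlrp1b (-0.83) and Ripk3 (-0.37) were lower.

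The remaining lists were mixed. Of 12 complement genes 4 were higher, with C3 and the alternative pathway factor Cfb (1.61) in front, and Cd59a, an inhibitor of the membrane attack complex, was lower (-0.54). The share of complement genes called was 41.7%, against 35.4% of all genes tested. Without FosKO replicate 1 or LysM-Cre replicate 1, 2 were lower, and under quantile normalisation 2 were higher. Of 11 lysozymes and secreted defence proteins 6 were higher, among them haptoglobin, Hp (1.74), and 3 were lower. Of 16 Nrf2 antioxidant genes 5 were higher and 4 lower, with the factor itself, Nfe2l2, at 0.46 and the glutathione synthesis enzyme Gclc at -0.32, and under quantile normalisation 4 were higher and 6 lower. Of 16 heat shock and ER chaperones 8 were higher and 1 lower, with the ER chaperone Hspa5 at 0.34, and under quantile normalisation 5 were higher and 2 lower. Of 9 alternative activation genes 2 were higher, Tgm2 (0.66) and Il4ra (0.14), and 3 were lower, Cd163, Klf4 and the lectin Mgl2 (-0.95). Under quantile normalisation 1 of these was higher.

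**Figure D4:**
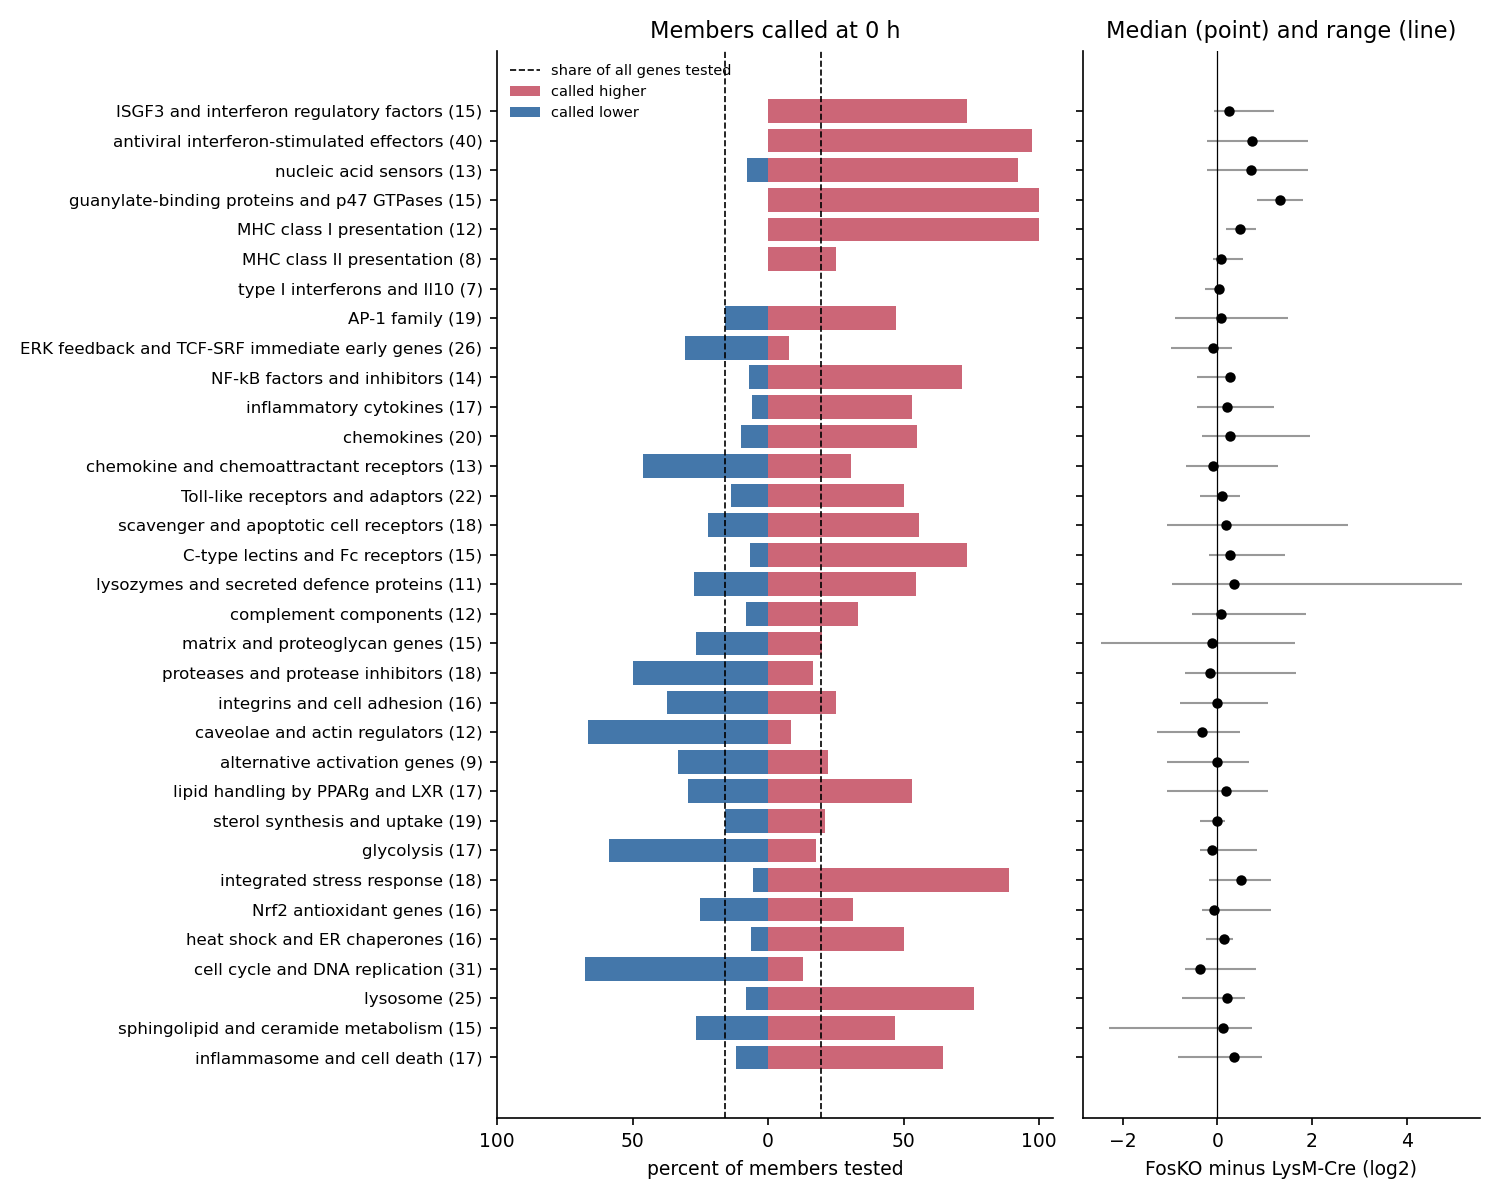
Left, percent of each list's tested members (number in parentheses) called higher (red, right of 0) or lower (blue, left of 0) in FosKO at 0 h, with dashed lines at 19.5% and 15.9% of all genes tested. Right, the median (point) and range (line) of the members' differences in log2. The antiviral, sensor, guanylate-binding protein, MHC class I and integrated stress response lists have the highest shares called higher, and the cell cycle list and the caveola and actin list the highest shares called lower.

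At later times, measured in other libraries, the direction was the same for most of the genes that differed by 2-fold or more. The later libraries add no mean to the 0 h difference, but they shared its filter and its variance estimate, and the sources used here do not say whether same-numbered libraries of a genotype came from 1 culture. Deviations from the group means were compared across tested genes between libraries at 2 times, by correlation. For same-numbered libraries the median was 0.0988 in FosKO (-0.0008 to 0.706, 18 pairs) and 0.0458 in LysM-Cre (-0.248 to 0.415, 18 pairs). For libraries of different numbers it was -0.0362 in FosKO (-0.527 to 0.301, 36 pairs) and -0.0276 in LysM-Cre (-0.585 to 0.422, 36 pairs). The fit treated the times as independent, and the later values are not independent support for those at 0 h. Of the 142 higher genes, 135, 137 and 129 were called higher at 0.5, 1 and 2 h after LPS, where 21.2%, 18% and 24.4% of all genes were (40.9%, 33.9% and 44.6% in either direction), and 127 were at all 3 times. Of the 63 lower genes, 62, 62 and 59 were called lower, where 19.7%, 15.9% and 20.3% of all genes were, and 59 were at all 3 times. The median of the 142 was 2.51-fold higher at 0 h and 2.83-, 2.46- and 2.31-fold higher at 0.5, 1 and 2 h. That of the 63 was 2.33-fold lower at 0 h and 2.52-, 2.34- and 2.05-fold lower at the later times. For both sets it was largest at 0.5 h.

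The genotype difference itself was compared between times by an interaction term, which was called for 16 genes (0.115%) at 0.5 h, 169 (1.22%) at 1 h and 2081 (15%) at 2 h. Of the 142 higher genes it was called for 1, 4 and 19, and of the 63 lower genes for 0, 0 and 11. These genes were chosen for a large difference at 0 h, so a smaller one later is to be read with that in mind. For Ccl5 the difference was 1.96 at 0 h and 0.47 at 2 h (interaction -1.49, adjusted p = 0.00112), and for Marco it was 2.76 and 1.87 (-0.89, adjusted p = 0.00138). For Rsad2 the difference of 1.31 at 2 h was not shown to differ from the 1.92 at 0 h (adjusted p = 0.15). Ifnb1 went the other way, with a difference of 0.10 at 0 h and 1.69, 3.18 and 3.00 at 0.5, 1 and 2 h.

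**Figure D5:**
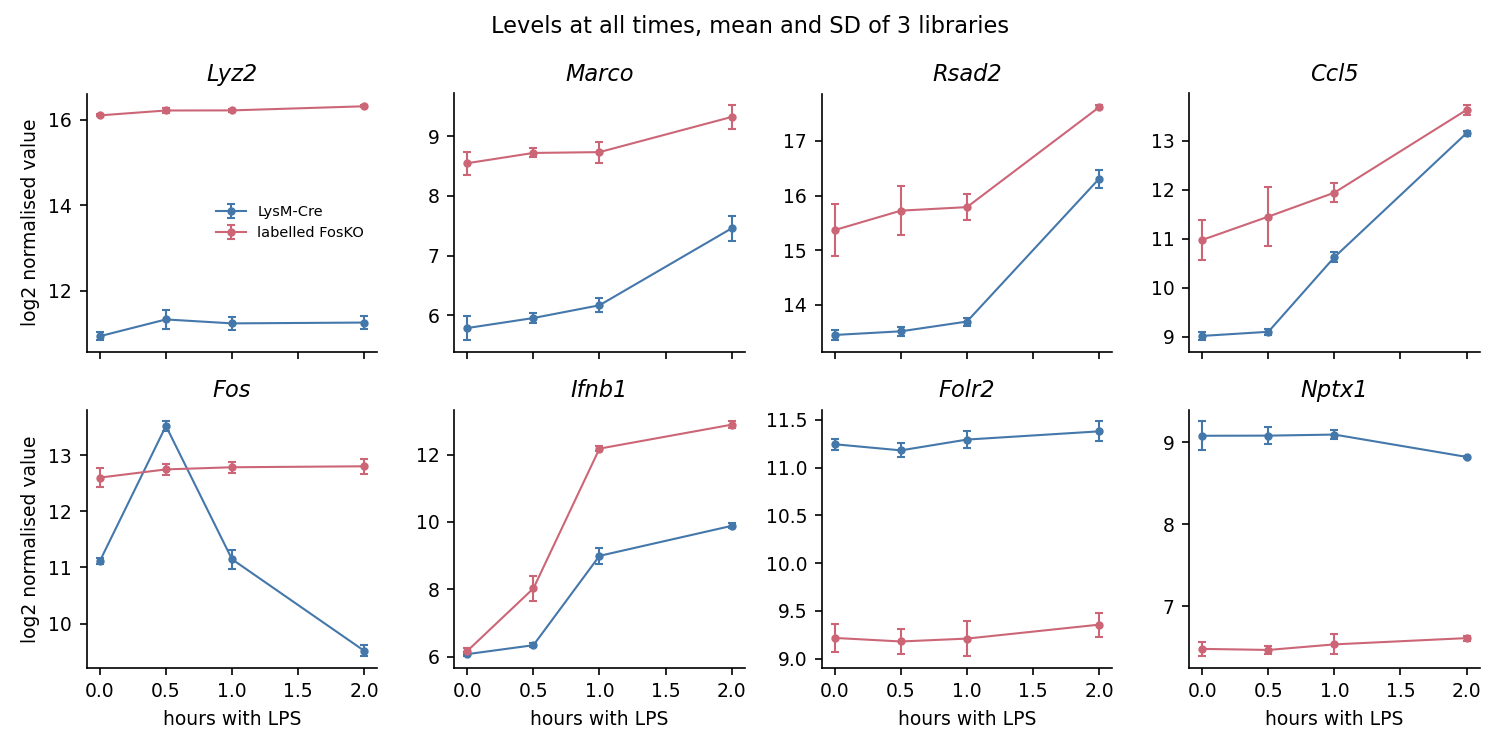
Log2 normalised value (y axis, mean with SD of 3 libraries) against hours with LPS (x axis) for 8 genes in LysM-Cre (blue) and the libraries labelled FosKO (red). Lyz2, Marco, Folr2 and Nptx1 keep a wide gap at all times, Ifnb1 starts with overlapping values at 0 h, and Fos in the FosKO libraries stays between 12.6 and 12.8 at all 4 times.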

How the data were processed

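RNA from the BMDM cultures was sequenced as strand-specific single-end TruSeq libraries. The authors deposited log2 normalised values per gene, with Ensembl identifiers, made from mm10 alignments. The submitters' processing notes name STAR 2.5.2a, RSEM 1.2.31 and DESeq2 1.16.1, and the method of the log transformation was not given in the sources used here. Genes with a linear value of at least 5 in at least 3 of 24 libraries were kept. All 24 libraries were fitted together in limma 3.58.1 (R 4.3.3) with 8 group means, 16 residual degrees of freedom and trended empirical Bayes variances, and p-values were adjusted by Benjamini-Hochberg over 13901 genes at 0.05. Differences are FosKO minus LysM-Cre on the log2 scale, with the limma SE. The study's methods call the libraries biological replicates. Neither they nor the labels say whether these came from separate animals, so p-values measure the spread between these samples, pooled over the 8 groups. The SEs and p-values at 0 h are thus not those of the 6 libraries alone. For the guanylate-binding proteins and p47 GTPases, the median SD at 0 h was 0.098 in LysM-Cre and 0.47 in FosKO. Named genes were the targeted gene, Lyz2, Ifnb1, Il10, the AP-1 family, the 12 largest called increases and decreases among protein-coding genes with a mean linear value of at least 50, and list members. The members and lists were chosen with earlier results of these data known. Alternatives were other scalings, filters, pseudocounts and sample sets, replicate blocks, and leaving out each library. The fit was tested on simulated data with independent libraries and the same spread in all groups. Such data cannot show how the fit does under the unequal spread at 0 h. Some members counted in the lists are not reported here by name.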

Additional observations from a re-analysis of the deposited data

Results flagged for a closer look

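For the following genes the genotype difference after LPS was not the one at 0 h, by the limma interaction term at an adjusted p under 0.05. Each value is the later difference minus that at 0 h, in log2. For Fos it was -2.26 at 0.5 h and 1.80 at 2 h. For Ifnb1 it was 1.59, 3.09 and 2.91 at 0.5, 1 and 2 h, and for Il10 -1.11 at 1 h and -1.44 at 2 h.

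In the AP-1 family it was 0.44 and 0.66 for Jun, 0.51 and 0.23 for Atf3, -0.25 and -0.38 for Atf4 and -0.61 and -0.95 for Jdp2, at 1 and 2 h. At 2 h alone it was 0.28 for Fosl2, 0.23 for Jund, -0.52 for Batf, 0.20 for Maf and 0.43 for Maff. Maff had not passed the test at 0 h.

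Among the largest differences at 0 h, the value at 2 h was -0.89 for Marco, -1.49 for Ccl5, -0.71 for C3, 0.39 for Nptx1 and 0.69 for Slco2b1. These genes were chosen for a large difference at 0 h. For Gm42674 it was 5.31, and its FosKO libraries at 0 h spread from 3.96 to 7.06.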

How the results depend on the processing

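At 0 h, 4919 genes were called, and 3975 to 5094 with 1 library left out. The number higher by 2-fold or more was 112 to 192 with 1 library left out, and the number lower 60 to 75. Fitting the 6 libraries alone called 3843. Same-numbered libraries correlated in their deviations at -0.001, 0.042 and 0.108, so the numbers were not taken as a pairing. A replicate block gave 5136 genes with all 24 libraries and 3622 with the 6 at 0 h. The latter called 1 of 8 MHC class II genes higher in place of 2, with H2-DMb1 no longer called (adjusted p = 0.058), 12 lysosome genes higher in place of 19, and 2 sphingolipid genes and 1 chemokine lower in place of 4 and 2. With same-numbered libraries of a genotype as a random block over the 4 times, a replicate block chosen after seeing the data, 4961 genes were called at 0 h and the interaction for 21, 218 and 2461 at 0.5, 1 and 2 h, with 5 higher at 0.5 h. Under quantile normalisation the called genes that were higher went from 55.1% to 45.3%. At 0.5 h the interaction was called for 16 genes, and for 9 without the 5 libraries with a low 18S value, 25 under quantile normalisation, 6 with the 12 libraries of both times and 11 to 17 with 1 library left out. Its higher calls were 4 without a filter, 1 with the 12 libraries and 1 to 3 with 1 library left out, and its lower calls 7, 22 and 5 in the first 3 settings and 9 to 14 with 1 library left out. At 1 h the 169 calls became 93 without the 5 libraries and 112 with 12 libraries, and the lower calls 32 and 60. Of 180 named genes, 153 kept direction and side of the threshold under every alternative. Those that turned, none called at 0 h, were Batf3 (-0.16 to 0.12 with 1 library left out, -0.02 without LysM-Cre replicate 1) and Mafg (-0.0815 to 0.0082, the latter without FosKO replicate 3). The causes were not tested. Depth per library is unknown.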

Other observations

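Of the 142 genes higher by 2-fold or more, several lay outside the lists described. Irg1, which makes the antimicrobial metabolite itaconate, differed by 1.77, Cd274 (PD-L1) by 1.52, Ass1, which regenerates arginine, by 1.53, Tnfsf10 (TRAIL) by 1.49, Il18bp, the inhibitor of interleukin-18, by 1.33 and the costimulatory ligand Cd86 by 1.04. Among the lower genes outside the lists were Kitl, the ligand of KIT (-1.30), Il1rl1, the interleukin-33 receptor (-1.24), Cpe, carboxypeptidase E (-1.46), and the semaphorin Sema3c (-1.12) with its receptor family member Plxna4 (-1.46). These genes were chosen after their values were seen.

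Some values varied widely within a group. In 54 of the 13901 tested genes the SD of a group exceeded 1 log2 unit, and 37 of the 54 were pseudogenes, as were 793 of all tested genes. Of the 54, 5 were called. The pseudogene Gm5537 had values of 3.68, 3.70 and 3.64 in LysM-Cre and 3.67, 9.10 and 10.30 in FosKO, and did not pass the test (adjusted p = 0.106). By contrast, the pseudogenes Gm13841 and Gm8210 varied little within a group. They had the same values to 2 decimals, 9.38, 9.40 and 9.36 in LysM-Cre and 4.94, 4.93 and 4.92 in FosKO, and so count as 1 observation. Their groups lay further apart than those of the 12 largest decreases, which were ranked among protein-coding genes only.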
